A study of Mus musculus with 20 samples.

Results

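Sustained induced p65 sites without SOCS1 are places in the mouse macrophage genome where p65 was called at both times after lipopolysaccharide (LPS), in both genotypes and not before LPS, and where no SOCS1 peak was called. They were 936 of the 36030 p65 peaks of wild-type (WT) cells after 30 min of LPS (2.60%, exact 95% interval 2.44 to 2.77). Each of them overlapped by at least 1 bp a p65 peak of the knockout (KO) 8 h, KO 30 min and WT 8 h lists. None overlapped a p65 peak of untreated KO or WT cells, or a peak of any of the 6 SOCS1 lists. The same p65 pattern with at least 1 SOCS1 peak was found at 4267 other sites, so the sites without SOCS1 were 17.99% (16.95 to 19.06) of 5203 sustained induced sites. All 12 lists together covered 96771 separate regions.

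The data are CUT&RUN libraries, in which an antibody guides a nuclease to its target on chromatin and the released DNA fragments are sequenced. The cells were macrophages grown from mouse bone marrow with M-CSF, either KO or WT, left untreated (control) or exposed to LPS at 100 ng/mL, with harvest after 30 min or 8 h. For the KO the submitters' design line gives NOS1, and for the WT strain C65BL6, while the study's title concerns SOCS1; the other labels do not settle which gene was disrupted. No age or sex of the animals is given in the sources used here, nor whether animals were pooled. Each combination of antibody (p65 or SOCS1), genotype and treatment is 1 library, so no difference between groups could be tested, and every interval covers counting error only. The p65 libraries after LPS held 10.6 M to 18.4 M tags, the p65 control libraries 8.79 M (KO) and 7.69 M (WT), and the SOCS1 libraries 6.93 M to 9.74 M. In KO control cells 91.4% of p65 peaks and 88.0% of SOCS1 peaks had no more than the floor value of 0.5 IgG tags, beside 14.7% to 43.0% elsewhere. The lowest score in any list was 7 to 12 tags, so a site outside a list may still have been bound at a lower level.

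p65 (RELA) is a subunit of NF-κB that carries a transactivation domain. Inhibitor proteins hold it in the cytoplasm of resting macrophages, and LPS sensed by TLR4 frees it within minutes to enter the nucleus and bind κB sites. Its presence on chromatin then falls and returns as the inhibitors are degraded and made again. SOCS1 is known best as an inhibitor of JAK kinases that LPS and cytokines induce, and it has also been described as promoting the degradation of p65.

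The sites overlapped 56 promoter windows of 48 genes in the RefSeq promoter table (GRCm38.p6, from 250 bases before to 50 after a gene start), from 45 sites. Printed below are the window of the strongest of these sites (Calcrl) and the one window with a whole κB core under the peak (Snx6). A window with a core outside the peak (Wdr70) and that of the listed JAK-STAT gene Ptpn11 follow. Capitals mark GGGAANNNCC, the κB core searched on both strands. Each is printed 5′ to 3′ on the strand of its gene, all of them the minus strand.

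Calcrl, chr2:84425217-84425516: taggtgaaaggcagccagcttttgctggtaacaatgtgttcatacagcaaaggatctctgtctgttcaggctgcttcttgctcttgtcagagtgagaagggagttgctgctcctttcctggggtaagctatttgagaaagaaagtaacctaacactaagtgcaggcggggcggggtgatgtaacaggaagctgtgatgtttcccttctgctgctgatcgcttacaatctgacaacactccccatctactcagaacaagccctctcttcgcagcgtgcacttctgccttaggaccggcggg

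Snx6, chr12:54795613-54795912: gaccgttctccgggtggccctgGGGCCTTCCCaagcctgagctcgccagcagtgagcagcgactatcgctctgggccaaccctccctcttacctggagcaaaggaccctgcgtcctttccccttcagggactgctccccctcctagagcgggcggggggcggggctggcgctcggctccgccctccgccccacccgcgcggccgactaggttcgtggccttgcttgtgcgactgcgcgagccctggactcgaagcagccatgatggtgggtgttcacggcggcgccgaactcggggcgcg

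Wdr70, chr15:8099160-8099459: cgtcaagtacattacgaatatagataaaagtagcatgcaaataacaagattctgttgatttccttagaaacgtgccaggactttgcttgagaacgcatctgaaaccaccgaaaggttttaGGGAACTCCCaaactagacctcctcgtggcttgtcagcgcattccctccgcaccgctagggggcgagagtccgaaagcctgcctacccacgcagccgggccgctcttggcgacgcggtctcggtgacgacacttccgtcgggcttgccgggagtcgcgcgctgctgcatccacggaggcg

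Ptpn11, chr5:121191348-121191647: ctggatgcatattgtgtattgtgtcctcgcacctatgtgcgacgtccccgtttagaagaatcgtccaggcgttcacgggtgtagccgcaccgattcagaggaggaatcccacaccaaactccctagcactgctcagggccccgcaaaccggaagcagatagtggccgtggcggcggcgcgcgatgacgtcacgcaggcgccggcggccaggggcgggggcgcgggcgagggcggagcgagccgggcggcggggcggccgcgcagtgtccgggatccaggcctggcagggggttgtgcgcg

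In Snx6, a sorting nexin of endosomes, the core began 228 bases before the gene start, under a WT 30 min peak that ran from 425 to 171 bases before it. In Wdr70 the core began 130 bases before the start and the peak ended 165 bases before it. The peaks at Calcrl and Ptpn11 likewise lay upstream, from 422 to 168 and from 417 to 163 bases before the start, and their windows hold no core. A window reaches only 250 bases upstream, so the farther parts of these peaks were not searched. Absence of a core from a window thus does not show its absence from the peak. In Gm36360, whose window is not printed, the core began 32 bases before the start and the peak 30 bases before it. That core lay partly under the peak. Of these 56 windows 10.7% (6 of 56, 4.04 to 21.9) held the core, against 11.6% of the 632 windows under sustained induced sites with SOCS1, 8.89% of the 5052 under any p65 WT 30 min peak and 5.78% of all 32851 windows. The wider motif GGGNNNNNCC, which contains the core, was in 58.9%, 65.2%, 67.5% and 50.8% of the same sets.

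Other motifs were searched on both strands in the same windows. The ETS motif CCGGAAGT was in 16.1% of the 56 windows (9 of 56, 7.62 to 28.3), 10.8% of windows with SOCS1 and 3.89% of all windows. The CRE motif TGACGTCA, which the Ptpn11 window holds, was in 7.14%, 3.01% and 1.79%. The GC box GGGGCGGGG was in 19.6%, 19.3% and 11.5%, and the AP-1 motif TGANTCA in 3.57%, 6.49% and 7.81%. The GAS-like motif TTCNNNGAA, bound by STAT factors, was in 8.93%, 9.18% and 8.30%, GAAANNGAAA, bound by IRF factors, in 5.36%, 5.06% and 3.44%, TTNCNNAA, bound by C/EBP factors, in 42.9%, 43.0% and 40.7%, and the PU.1 motif GAGGAAGT in 1.79%, 4.27% and 3.20%. Of the 5052 windows under any p65 WT 30 min peak, 10.1% held the ETS motif, 3.68% the CRE motif and 19.5% the GC box. The AP-1, GAS-like, IRF, C/EBP and PU.1 motifs were in 5.62%, 7.56%, 3.64%, 34.3% and 3.48% of them. For every motif the interval of the 56 windows included the share of the windows with SOCS1 and that of the 5052. The 56 windows had a median GC content of 57.8% and 19 CpG. This was close to the windows with SOCS1 (58.7% and 19) and to the 5052 (60.0% and 21), and above all windows (52.7% and 7). Higher shares than in all windows were thus not particular to these sites. The 56 windows come from 45 sites, since some genes have several windows and some neighbouring genes share a site. The intervals count windows as independent and are therefore too narrow. The CRE windows were those of Ptpn11 and, at a single site, those of Gm33037 and Ldah. The ETS windows also include those of Gm33037 and Ldah, and those of Pphln1 and Zcrb1, which share another site.

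The strength of a site is given as the authors' peak score, the tags in the peak with at most 1 per bp, in the order KO 8 h, KO 30 min, WT 8 h and WT 30 min. Scores are not scaled to depth and peak widths differ between lists, so a score is read within its own list. The strongest site by its lowest score percentile over the 4 lists lay inside Ptafr, the receptor for platelet-activating factor (chr4:132567179-132567433), with scores of 104.5, 84, 53 and 89. It stood above at least 92.1% of the peaks in every list. A site between genes (chr17:80933916-80934170), 10589 bp from Tmem178, had scores of 123, 79.5, 80 and 63.5.

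Sites at further receptor genes were among the 12 strongest. Inside Ednrb, the endothelin receptor type B (chr14:103840888-103841142), the scores were 84, 92, 39.5 and 85.5. At Calcrl, the receptor for adrenomedullin and CGRP (chr2:84425434-84425688, 295 bp upstream of the start printed above), they were 64, 71, 39.5 and 62.5. Within their lists both stood highest at WT 30 min, above 96.5% (Ednrb) and 90.1% (Calcrl) of the peaks, and lowest at WT 8 h, above 84.1%.

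Of the 12, 1 was within 10 kb of a gene of the NF-κB list. Relb, an NF-κB subunit that pairs with p52 and p50, had a site 282 bp from a gene end (chr7:19629593-19629847) with scores of 61, 76.5, 39 and 57. A site 8259 bp from Ets2, an ETS-family transcription factor (chr16:95729181-95729435), had 64.5, 83.5, 44 and 57. The site at chr1:155121727-155121981 lay 6020 bp from Mr1, which presents vitamin metabolites to T cells, and 22218 bp upstream of the immediate-early gene Ier5, with scores of 94.5, 87.5, 76.5 and 59. Its local fold, the authors' ratio of the peak to the surrounding 10 kb, was 18.97, 43.0, 33.9 and 24.8, against a median of 7.31, 11.3, 10.2 and 10.2 over the 936 sites. The site at chr11:54975722-54975976 was 3104 bp from Anxa6 and 12909 bp upstream of Tnip1, a partner of the NF-κB inhibitor A20, with 87.5, 80, 66 and 53.

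The remaining sites of the 12 were inside Daam1, a formin of the actin cytoskeleton (71.5, 81, 55.5 and 75), inside Cdk6, a G1 cyclin-dependent kinase (112.5, 76.5, 66 and 54.5), 347 bp from 9130401M01Rik (70.5, 69, 42 and 70) and 2865 bp upstream of Rnase10, a ribonuclease A family gene (115.5, 96.5, 78.5 and 53). Of the 12, 10 had a SOCS1 peak within 300 bp, so most of the strongest sites without SOCS1 bordered on SOCS1. Some of the 12 also lay close to a p65 peak of untreated cells, without overlap. These were the sites at Calcrl, 9130401M01Rik and Relb and the one near Tmem178, with gaps from 63 bp (Calcrl) to 359 bp (Relb). Among the rest of the 12 the smallest such gap was 2885 bp (Ednrb).

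**Figure D1:**
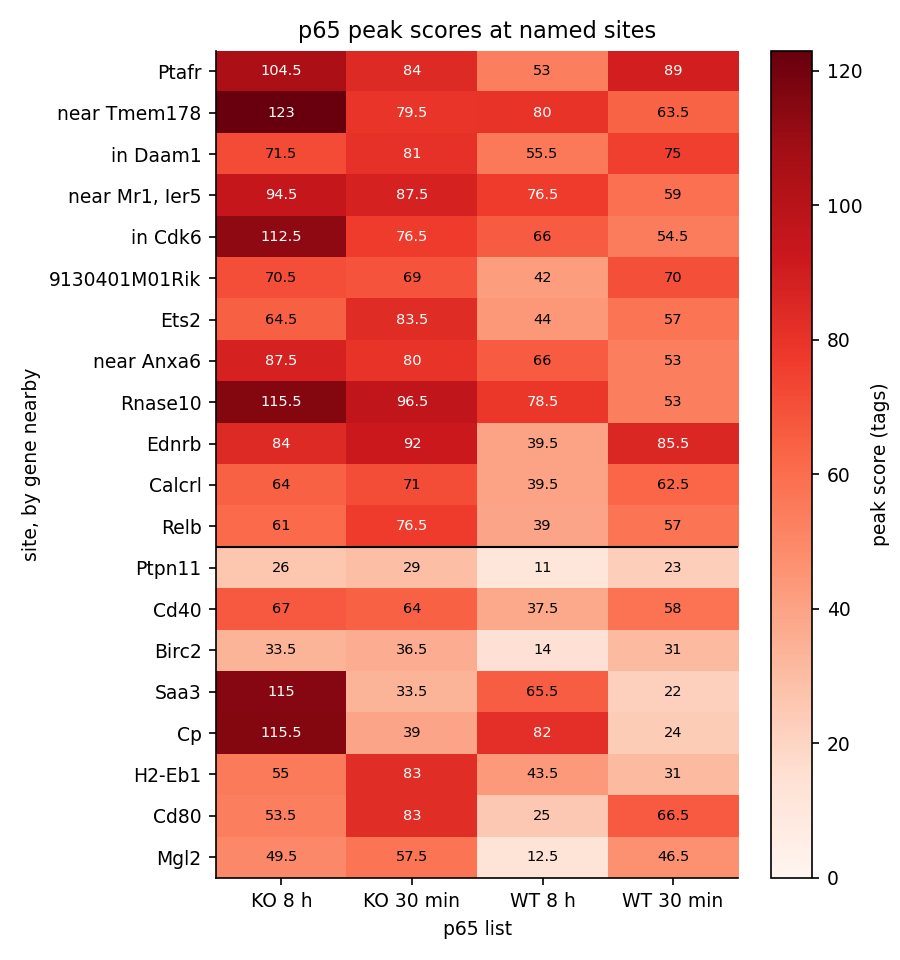
Peak score (tags, colour and printed number) in the 4 p65 lists after LPS, columns, at the 12 strongest sites without SOCS1, above the line, and at the other sites within 10 kb of an end of a listed gene, below it, each row named by a gene nearby. Ptafr and the site near Tmem178 are high in all 4 lists, whereas Saa3 and Cp reach 65.5 to 115.5 in the 8 h lists and 22 to 39 in the 30 min lists.

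Of 21887 protein-coding genes, 1.94% had a site without SOCS1 within 10 kb of either end (424 genes). Of the 425 genes in 23 lists, 10 did (2.35%), a share close to that of all genes. Sustained induced sites with SOCS1 were near 12.3% of all genes and near 26.8% of the listed ones (114 of 425). Listed genes had p65 peaks of any kind more often: 381 of the 425 had a WT 30 min peak within 10 kb, against 58.9% of all genes. The shares above do not allow for that. No pro-inflammatory cytokine (0 of 20), chemokine (0 of 18), interferon-stimulated gene (0 of 26) or TLR4 signalling gene (0 of 26) had a site without SOCS1 within 10 kb, while 7, 5, 9 and 7 of them had a site with SOCS1. Of 18 NF-κB subunits and feedback inhibitors Relb alone had a site without SOCS1, and 3 had a site with SOCS1. Lists of this size would hold less than 1 gene at the rate of all genes, so a count of 0 shows little by itself.

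Among the other listed genes were costimulatory and antigen presentation genes. Cd40, the costimulatory receptor of the TNF receptor family, had a site 6119 bp from a gene end (chr2:165049368-165049622) with scores of 67, 64, 37.5 and 58. Cd80, a costimulatory ligand for CD28, had a site inside the neighbouring gene Adprh (chr16:38452063-38452317) with 53.5, 83, 25 and 66.5. H2-Eb1, an MHC class II chain, had a site 5680 bp away (chr17:34322227-34322481) with 55, 83, 43.5 and 31. All 3 stood above at least 60.5% of the peaks in every list. The percentile within the list was lowest at WT 8 h for Cd40 (82.4) and Cd80 (63.6), and at WT 30 min for H2-Eb1.

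Saa3, an acute-phase apolipoprotein that macrophages make (chr7:46715980-46716234), had scores of 115, 33.5, 65.5 and 22, and Cp, the copper protein ceruloplasmin (chr3:19954271-19954525), had 115.5, 39, 82 and 24. Both lay above at least 95.8% of peaks in each 8 h list and above at most 61.6% in each 30 min list. Birc2, an inhibitor of apoptosis that ubiquitinates kinases of the NF-κB pathway, had scores of 33.5, 36.5, 14 and 31. Ptpn11, the phosphatase SHP2, had 26, 29, 11 and 23, and Mgl2, a macrophage lectin, had 49.5, 57.5, 12.5 and 46.5. Their percentiles were lowest at WT 8 h, at 24.7, 7.44 and 16.35 in turn, and at least 43.6 in each other list. The median percentile of the 936 sites was also lowest at WT 8 h (40.7). Relb, Ptpn11, Ets2 and Cd40 also had a sustained induced site with SOCS1 within 10 kb, whereas Birc2, Saa3, Cp, H2-Eb1, Cd80 and Mgl2 had none.

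More genes come in at a longer distance. Within 50 kb of a gene end, 6.47% of all genes and 10.6% of the listed genes (45 of 425) had a site without SOCS1, and 30.8% and 58.1% had one with SOCS1. The NF-κB genes among the 45 were Nfkb1, Rela, Relb, Tnip1 and Tnip3, and the JAK-STAT and SOCS genes were Jak1, Socs1, Socs3, Socs7 and Ptpn11. Tnf, Lta and Ltb, which lie side by side, were the cytokines.

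The choice of the sites rested on calls, and each requirement removed a part of the list. Of all WT 30 min peaks, 64.3% were also called in KO 30 min cells, 46.3% in WT 8 h cells and 40.2% in KO 8 h cells, while 13.1% and 12.1% overlapped a peak of KO and WT control cells. The 5203 sites left fell to 1859 after the WT SOCS1 lists and to 936 after the KO SOCS1 lists. If the KO cells lacked SOCS1, their SOCS1 peaks would be antibody background and 1859 sites would be without SOCS1. Which count applies cannot be told from the lists.

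**Figure D2:**
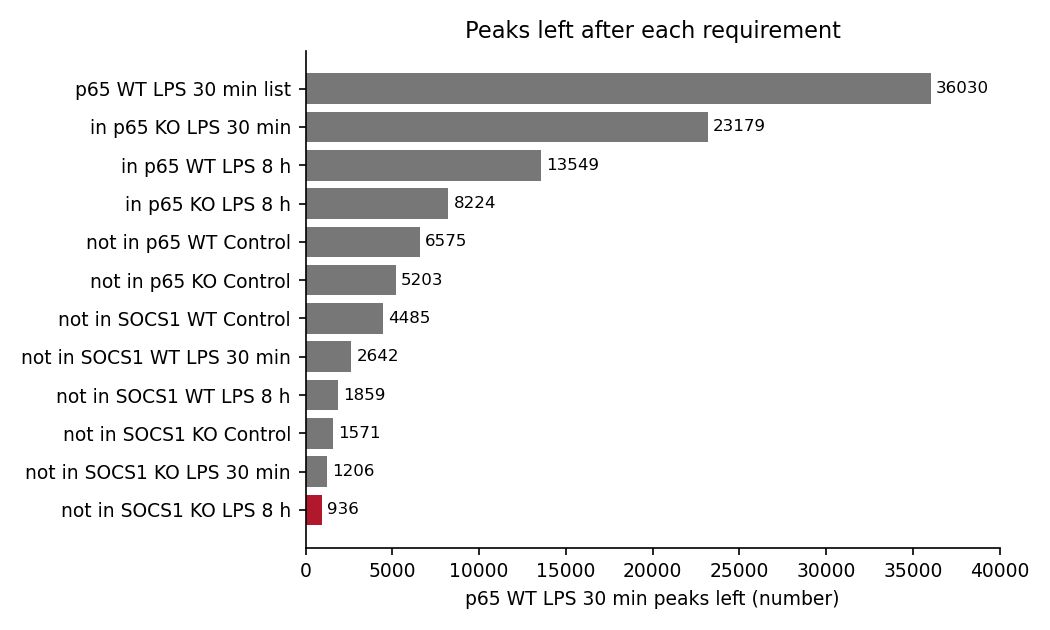
Number of p65 WT 30 min peaks left (x axis) after each requirement, applied from top to bottom. The count falls from 36030 to 5203 through the p65 lists and to 936 (red) through the SOCS1 lists.

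Sites without SOCS1 had lower scores than those with SOCS1 in every list, while their fold over IgG was not lower in every list. The median score was 29.5, 32.5, 17.5 and 24 at sites without SOCS1, and 46, 55, 28.5 and 42 at sites with SOCS1. The score percentile within the list had a median of 51.1, 51.2, 40.7 and 46.1 at sites without SOCS1, near the middle of each list, and of 73.6, 78.8, 70.7 and 76.2 at sites with SOCS1. Of the 936 sites without SOCS1, 4.38% (41) were in the highest of 4 equal score groups of all 4 lists, against 29.2% of the 4267 with it. At least 1 score in the lowest group was found at 47.9% of the sites without SOCS1 and at 14.01% of those with it. The median fold over IgG was 19.5, 20.2, 20.1 and 17.5 at sites without SOCS1 and 17.2, 23.0, 21.4 and 15.9 at sites with SOCS1, so it was higher without SOCS1 in the KO 8 h and WT 30 min lists. The scores and folds helped to set the calls the sites were chosen by, so they are a description.

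**Figure D3:**
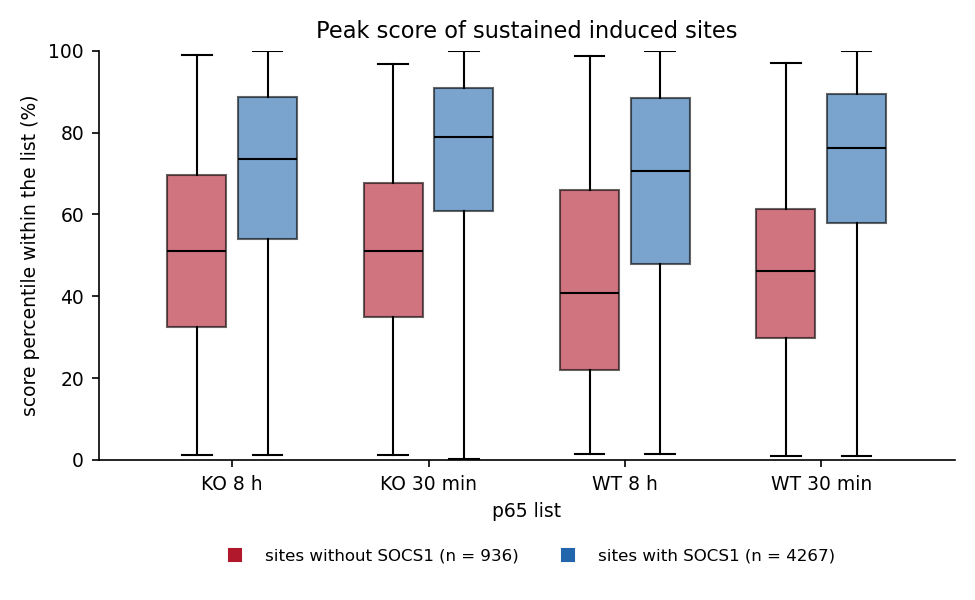
Score percentile within each p65 list (y axis) of sustained induced sites without SOCS1 (red, n = 936) and with SOCS1 (blue, n = 4267). Boxes span the middle of the values between their lower and upper quartiles, the line is the median and whiskers reach the lowest and highest value; the red medians lie between 40.7 and 51.2 and the blue ones between 70.7 and 78.8.

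The weaker the p65 peak, the more often no SOCS1 peak was called. In 4 equal groups of the WT 30 min list by score, the share of sustained induced sites without SOCS1 was 55.5% (191 of 344) at scores of 10 to 16.5, 37.1% at 17 to 25.5, 18.1% at 26 to 41 and 4.54% (104 of 2293) at 41.5 to 242.5. Sites called at 30 min in both genotypes, and in neither 8 h nor control cells, showed the same order at a higher level, with 78.1%, 56.9%, 36.2% and 18.8% without SOCS1. The whole list showed it too, with 78.9%, 48.6%, 21.7% and 7.07%. In all, 17.99% of the sustained sites, 55.1% of these early sites (3189 of 5787) and 39.3% of the whole list (14170 of 36030) were without SOCS1.

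The sites without SOCS1 lay away from gene starts and ends more often than those with SOCS1. Within 1 kb of a gene start were 7.80% of them (73, 6.16 to 9.71), against 18.98% of the sites with SOCS1 (810, 17.8 to 20.2), 10.8% of the early sites without SOCS1 and 19.7% of the whole list. With the WT SOCS1 lists alone excluding a site (1859 sites), 12.3% (10.9 to 13.9) of the sites without SOCS1 lay there. Over 10 kb from every gene end were 66.0% of the 936 sites, 53.7% of the sites with SOCS1, 59.3% of the early sites and 51.3% of the whole list. Outside genes and over 1 kb from their ends were 43.1%, against 37.0% of the sites with SOCS1 and 40.8% of the early sites without SOCS1. Inside genes and over 1 kb from their ends were 46.2%, against 41.5% and 46.5%. The intervals of the sites with and without SOCS1 did not overlap for these shares, except for that inside genes. Seen from the other side, 8.27% of the sustained sites near a gene start were without SOCS1, against 20.0% of those farther away.

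Within the 2 upper score groups the difference at gene starts was present as well. In the 3 upper score groups 12.7%, 5.42% and 5.77% of the sites without SOCS1 and 18.4%, 20.5% and 18.9% of those with SOCS1 lay within 1 kb of a gene start. In the highest group the intervals were 2.15 to 12.1 and 17.3 to 20.6, and in the group of scores 26 to 41 they were 3.13 to 8.66 and 18.4 to 22.8. In the lowest 2 groups the intervals overlapped. Gene starts come from the promoter table, which has a start for 17492 of the 21887 genes and none for Relb. The missing starts are not scattered evenly. Chromosome 18 has none, so its 35 sites (3.74%, against 3.08% of the whole list) all counted as far from a gene start. On chromosome 3 a site 5534 bp from an end of Car13 had its nearest start 757891 bp away. Shares near a gene start are therefore too low in such regions.

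**Figure D4:**
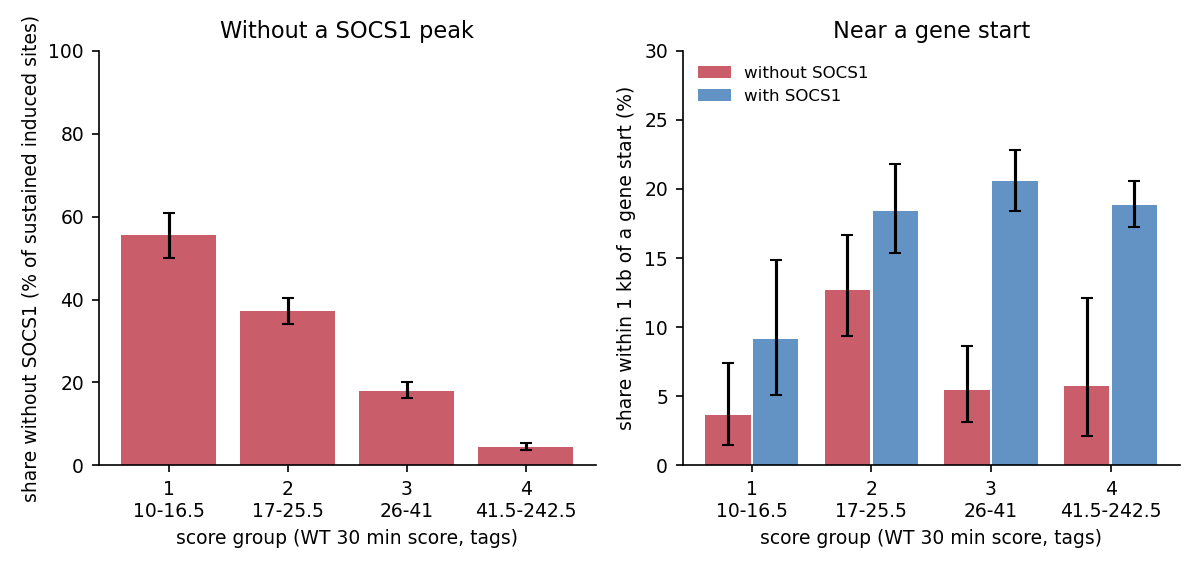
Left, share of sustained induced sites without SOCS1 (y axis, %) in 4 equal groups of the WT 30 min list by score (x axis, tags); right, share within 1 kb of a gene start of sites without (red) and with SOCS1 (blue). Error bars are exact 95% intervals; the left bars fall from 55.5% to 4.54%, and on the right the red bars stay at or below 12.7%.

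The more SOCS1 lists a sustained site was in, the stronger it was and the more often it lay at a gene start. From 0 lists through 1, 2, 3, 4, 5 and 6 lists the median WT 30 min score was 24, 30, 38, 45.5, 54, 64 and 67.25. The share within 1 kb of a gene start was 7.80%, 13.1%, 16.01%, 19.7%, 23.1%, 30.1% and 41.3%. Sites in a single SOCS1 list (1063) were thus nearer to the sites without SOCS1 than those in several lists. A single list was the only reason for leaving out 270, 224 and 111 sites for SOCS1 in KO 8 h, 30 min and control cells, and 215, 211 and 32 sites in WT 8 h, 30 min and control cells.

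Having no overlap with SOCS1 did not mean being far from it. A SOCS1 peak lay within 500 bp of 26.0% of the sites (243, 23.2 to 28.9) and within 10 kb of 63.1%. Of all WT 30 min peaks without SOCS1, 21.6% and 64.1% had one so close. The share within 500 bp was 11.52%, 22.0%, 30.5% and 52.9% over the score groups from low to high, against 10.98%, 24.9%, 40.7% and 63.4% of all peaks without SOCS1. Strong sites thus bordered on SOCS1 more often in both sets. The bordering SOCS1 peaks had a median score of 11 (lowest 7, highest 56.5), near the lowest scores of their lists. They came from KO lists at 180 sites and from WT lists at 126, with 63 sites in both.

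**Figure D5:**
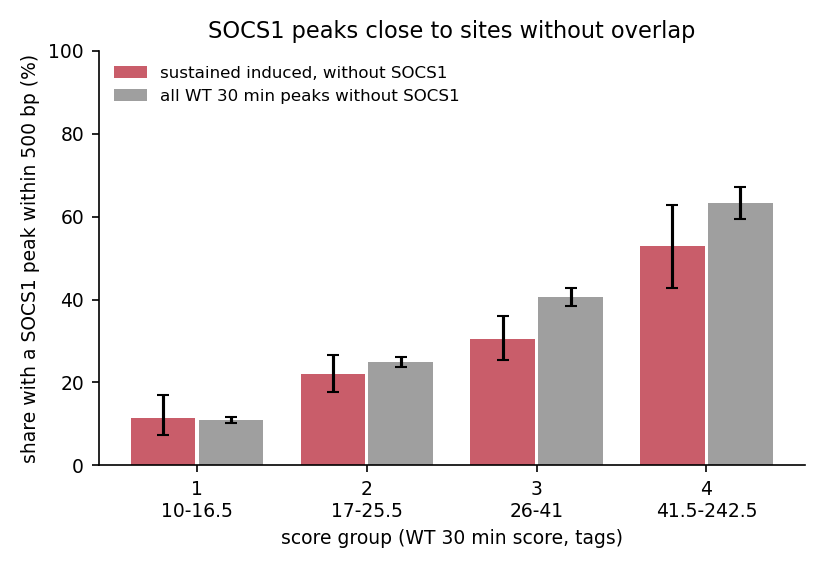
Share of sites with a SOCS1 peak within 500 bp (y axis, %), without overlap, in 4 equal groups by WT 30 min score (x axis, tags), for sustained induced sites without SOCS1 (red) and for all WT 30 min peaks without SOCS1 (grey). Error bars are exact 95% intervals; both sets rise with score, to 52.9% and 63.4%.

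Among the sites, scores went together by time more than by genotype. Across the 936 sites Spearman's rho was 0.73 between KO 8 h and WT 8 h, 0.80 between KO 30 min and WT 30 min, and 0.37 to 0.42 between any 8 h and any 30 min list. These are correlations across sites, which are not replicates; sites within a list share its depth, and lists of the same treatment share no library. The KO 30 min and WT 8 h peaks were centred within 50 bp of the WT 30 min peak at 70.8% and 68.7% of the sites, and those of KO 8 h, which are the widest, at 32.1%.

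The sites whose percentile differed most between the times were picked for that difference and have no test. The site at chr14:57484071-57484325, 40631 bp from the start of Il17d, a cytokine of the IL-17 family, had scores of 85.5 and 53 in KO and WT cells at 8 h, against 14 and 12.5 at 30 min. At chr2:146403567-146403821, 108310 bp from the start of Ralgapa2, they were 134.5 and 70 at 8 h, against 19.5 and 13. Near Bcl2l15, a gene of the BCL2 family, they were 80 and 35.5, against 13.5 and 14. The reverse was seen near Tnn, the matrix protein tenascin N, with 22 and 15.5 at 8 h, against 68 and 55.5 at 30 min. It was also seen at chr9:23594842-23595096 (14.5 and 10, against 69 and 35.5) and chr1:98727852-98728106 (15.5 and 12, against 43 and 33). Their nearest gene starts in the promoter table, those of Bmper and Slco6d1, were 371893 and 306855 bp away. All of these sites passed the calls at both times, some of them at or just above the lowest score of a list. The WT 8 h score of 10 at chr9:23594842-23595096 is the lowest of that list.

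Few sites had another sustained induced site close by, although 49.6% (464) had some other WT 30 min p65 peak within 10 kb, against 59.8% of the whole list. Of the 936, 26 (2.78%) had another such site within 10 kb, and 70 (7.48%) had a sustained induced site with SOCS1 within 10 kb. These shares were not computed for other peaks. A gene end within 10 kb was absent for 618 sites, and 232, 71 and 15 sites were linked to 1, 2 and 3 or more genes. Of the 424 linked genes, 72 (16.98%) also had a sustained induced site with SOCS1, against 12.3% of all genes. These 72 are 2.67% of the 2697 genes with such a site, while 1.94% of all genes had a site without SOCS1. Genes of either kind have a WT 30 min p65 peak within 10 kb by definition, but only 58.9% of all genes (12896 of 21887) do. The shares of all genes are therefore not a like base, and no excess of shared genes is read from them. For 84 genes the site without SOCS1 was the only WT 30 min peak within 10 kb. The genes with 2 sites were Ctla4, which codes for an inhibitory receptor of T cells, Chst11, a chondroitin sulfotransferase, and Rab3c, a small GTPase of vesicle release. Their WT 30 min scores were 27.5 and 11 for Ctla4, 22.5 and 19.5 for Chst11, and 32.5 and 15 for Rab3c.

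Genes of microRNAs were near a few sites. Of 1005 microRNA genes in the RefSeq table, 16 (1.59%) had a site without SOCS1 within 10 kb and 70 (6.97%) a sustained induced site with SOCS1. Mir212 and Mir132, named here after their values were seen, lie in a row, 2568 and 2862 bp from the centre of a site at chr11:75170693-75170947. Its scores were 20, 37, 20 and 35, and a SOCS1 peak was 146 bp away. Their 3p arms share the seed, bases 2 to 8, shown in capitals.

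mmu-miR-212-3p: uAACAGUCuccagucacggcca

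mmu-miR-132-3p: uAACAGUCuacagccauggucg

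The limits of the choice ran through close cases. The sites nearest to being left out touched a SOCS1 peak of KO control cells without sharing a base, at chr10:17588917-17589171 (134184 bp from Cited2, WT 30 min score 25.5) and chr3:101836230-101836484 (74 bp from Mab21l3, 18.5). The sites nearest to being kept shared 3, 4 and 7 bp with a SOCS1 peak, near Tanc1 (28.5), Plg (19) and Sel1l (53). A p65 control peak lay 4 bp from the site near Cstf3, an mRNA cleavage factor, and 19 bp from the site near Napsa, the aspartic protease napsin A.

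The control under the sites differed as well. The floor value of 0.5 IgG tags stood under 43.9% of the sites without SOCS1, against 19.8% of those with SOCS1. It stood under 33.4% of the whole list, 50.8% of the early sites without SOCS1 and 51.5% of all listed peaks without SOCS1. The sites were thus above those with SOCS1 and the whole list, but below both other sets without SOCS1. The part of the floor value in the calls was not tested. The local fold was at least 8 at 69.6% of the sites without SOCS1, 76.9% of those with SOCS1 and 53.8% of the whole list.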

How the data were processed

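The members and the gene lists were chosen with earlier results of these data known. Per the submitters' processing notes, the authors used cutadapt, Bowtie2 2.4.1, HOMER 4.11 and mm10. Per the file headers, HOMER called each list in factor mode from 1 library against IgG, with an FDR of 0.001, at least 4-fold over IgG and over the local 10 kb, and a Poisson p of at most 0.0001. Per the file headers, the deposited signal is tags per 10000000 or IgG tags, the score is the authors' tag count at no more than 1 per bp, the ratio is the authors' fold over IgG, local or clonal background, the fraction is the authors' focus ratio, and the p-value is the authors' unadjusted Poisson p. None was recomputed. Of 20 samples, 12 had a list used here, 6 IgG libraries entered through the calls, and 2 internal controls were not used.

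Overlap was at least 1 bp, and gaps run from edge to edge. Distances to genes run from the peak centre to gene ends or to starts of the RefSeq tables (GRCm38.p6); genes are protein-coding. Shares carry exact Clopper-Pearson 95% intervals for counting error only. The overlap rule was tested on simulated lists. Sites were named by rules: the 12 highest by lowest percentile over the 4 LPS lists, sites within 10 kb of listed genes, genes with most sites, sites nearest the 1 bp threshold and the largest differences between times. Motifs around the sites themselves were not searched, since no genome sequence was used here; promoter windows served instead. Python 3.11.15, pandas 2.3.3 and scipy 1.17.1 were used.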

Additional observations from a re-analysis of the deposited data

How the results depend on the processing

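No paired analysis was possible because each group is 1 library. The number of sites (936) was 828 with an overlap of at least 50% of the shorter peak, 1166 with centres within 500 bp and 942 with the KO 30 min list as the start. It moved to 369 with only peaks at least 8-fold over the local background, and to 1859 when the WT SOCS1 lists alone excluded a site. Leaving out each list gave 968 to 1908 sites, with 1908 without p65 KO 8 h and 1794 without p65 WT 8 h. The 424 linked genes became 182 and 981 under the 8-fold and WT-SOCS1 settings, 443 to 937 with a list left out (937 without p65 KO 8 h and 829 without p65 WT 8 h), 1416 within 50 kb and 237 by gene start. The share within 1 kb of a gene start (7.80%) was 5.83% with centres within 500 bp, 10.3% with 8-fold peaks, 12.3% with WT SOCS1 lists alone and 7.69% to 10.5% with a list left out; 14.6% lay within 5 kb. The share without SOCS1 (17.99%) was 19.1% with the stricter overlap, 16.9% with 8-fold peaks, 35.7% with WT SOCS1 lists alone and 14.75% to 24.05% with a list left out. In settings chosen after seeing the data, asking for no SOCS1 peak within 500 bp left 693 sites, 276 genes, 5.20% near a gene start and 13.3% of the sustained sites, and 10.8% lay within 1 kb of either gene end. The planned κB searches in 100 to 400 bp around the sites were not run. Depth and the lowest scores limit what absence from a SOCS1 list shows. The cause of these shifts was not tested, beyond fewer lists excluding or requiring a site.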

Other observations

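Further listed genes had a site without SOCS1 within 50 kb of a gene end. Among pattern recognition receptors these were Tlr2, Tlr7 and Mefv (3 of 20), among cell death and survival genes Bcl2a1a, Mcl1, Birc2, Birc3 and Mlkl (5 of 20), and among antigen presentation genes H2-Aa, H2-Eb1, H2-D1, Nlrc5 and Cd80 (5 of 18). Hif1a, which codes for a subunit of the hypoxia factor HIF-1, and the glycolytic enzyme gene Aldoa were the 2 of 21 glycolysis and HIF-1 genes. No TLR4 signalling gene (0 of 26) and no adhesion or migration gene (0 of 20) was among them, and 3 of 15 housekeeping genes were, beside 6.47% of all genes.

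Chromosome X held 3.21% of the sites (30, 2.17 to 4.54), against 1.78% of the sustained induced sites with SOCS1 (1.41 to 2.22). It held 2.31% of the whole WT 30 min list and 2.78% (2.52 to 3.07) of that list's peaks without SOCS1. Of the early sites without SOCS1 it held 2.92% (2.36 to 3.56), so the share was not particular to the sustained sites.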
